A study of Mus musculus with 14 samples.

Results

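The Myc, Max and Mxd network is a group of transcription factor genes, and 10 of them were followed here among the 55487 genes of the count table: Myc, Mycn, Mycl, Max, Mxd1, Mxd4, Mxi1, Mnt, Mga and Mlx. They were matched by gene identifier. The set was chosen by the Myc counts of treated and untreated resident mast cells, where Myc was much lower after treatment, so all Myc differences, which use 1 or both of these groups, are given as a description with no test. Myc proteins bind DNA only as dimers with Max, at E-box sequences, and raise the transcription of genes for ribosome building, metabolism and growth. Max also pairs with Mxd1, Mxd4, Mxi1, Mnt and Mga, which compete with Myc for Max and for the same sites and mostly repress, and Mlx forms a parallel arm that pairs with the nutrient-sensing factors Mlxip and Mlxipl and with some of the Mxd proteins. In many lineages Myc is high in growing cells and Mxd1 is high in cells that leave the cycle and mature.

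The libraries were made from mast cells of mouse ear skin. MC903 is calcipotriol, a vitamin D analogue that causes a dermatitis resembling atopic dermatitis when it is put on the skin. Libraries 1 to 5 were resident mast cells of untreated mice, libraries 6 to 10 were resident mast cells of MC903-treated mice, and libraries 11, 13, 14 and 15, also from mice given MC903, carry the cell type label bone marrow mast cells. The extraction protocol speaks of both ears and, beside resident cells, of mast cells positive for integrin β7, so the bone marrow label is used here as a name and not as a place of sampling. Each library held up to 100 sorted cells. Strain, age, sex, dose and time of treatment were not given in the sources used here. Neither were the animals, so p-values measure only the spread between libraries.

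Total counts per library lay between 17706764 and 27068993 (untreated resident), 13068078 and 25287381 (MC903 resident), and 19978811 and 31781926 (bone marrow). Libraries 7, 8 and 15 had the most genes detected (34560, 35246 and 32814), against 16025 to 28790 in the other libraries. Mitochondrial genes took 1.22% to 1.70% of the counts in untreated, 2.39% to 3.96% in MC903 resident and 2.14% to 4.24% in bone marrow libraries, so every treated library lay above every untreated one. The Myc levels given below separate the same libraries, and the part of this difference in the results was not tested. Summed mast cell markers reached 85356 to 160063 CPM (counts per 1000000 counts, scaled by TMM), and all 11 markers were detected in every group. Itgb7, which encodes the integrin β7 chain, had 395 to 657 CPM in bone marrow libraries and 138 to 315 CPM in resident libraries. The 10 markers of macrophages and dendritic cells summed to 10635 CPM in bone marrow library 15 and to between 53.5 and 346 CPM in the other libraries. In library 15, Lyz2 had 4817 CPM and C1qb 2252 CPM. Keratinocyte, fibroblast, neutrophil, T cell and B cell markers summed to at most 83.8 CPM in any library. The 4 basophil markers, some of which mast cells also express, summed to 508 to 758 CPM in untreated, 479.7 to 703 CPM in MC903 resident and 316 to 1569 CPM in bone marrow libraries. Among them the basophil protease gene Mcpt8 had 46.5 to 976 CPM in bone marrow libraries, above all untreated libraries (9.50 to 37.2 CPM) but overlapping the MC903 resident ones (3.15 to 57.0 CPM), and its edgeR adjusted p of 0.05017 (bone marrow against untreated) and 0.07703 (against MC903 resident) missed the threshold. The part of these cell type markers in the results was not tested.

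Of the network genes, 9 passed the filter on low counts and entered the fit, and Mycl did not. Myc, Mxd1, Mxd4, Max, Mxi1, Mga, Mlx and Mnt were counted in all 14 libraries. Mycn and Mycl were close to the floor of detection, which is 3 counts, or 0.104 to 0.193 CPM by library. Tests were edgeR quasi-likelihood tests over 21014 genes with Benjamini-Hochberg adjustment, and a gene was called at an adjusted p under 0.05.

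Myc is the activator of the network (GRCm38 chromosome 15, 61985391 to 61990374, plus strand). In untreated resident cells it stood at 176, 98.1, 81.9, 156 and 179.6 CPM in libraries 1 to 5. In MC903 resident cells it stood at 5.45, 7.16, 8.16, 12.1 and 16.6 CPM in libraries 6 to 10. In bone marrow cells it stood at 29.0, 24.5, 21.5 and 28.4 CPM in libraries 11, 13, 14 and 15. The ranges of the groups did not touch: every untreated library lay above every bone marrow library, and every bone marrow library above every MC903 resident library. Mean levels were 138 ± 45.4 CPM (SD, n = 5), 9.89 ± 4.48 CPM (SD, n = 5) and 25.9 ± 3.53 CPM (SD, n = 4). Myc was thus 13.96-fold lower in MC903 resident than in untreated resident cells (log2 difference -3.80, SE 0.33). In pools of cells, fewer cells with a transcript and less transcript per cell cannot be told apart.

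**Figure D1:**
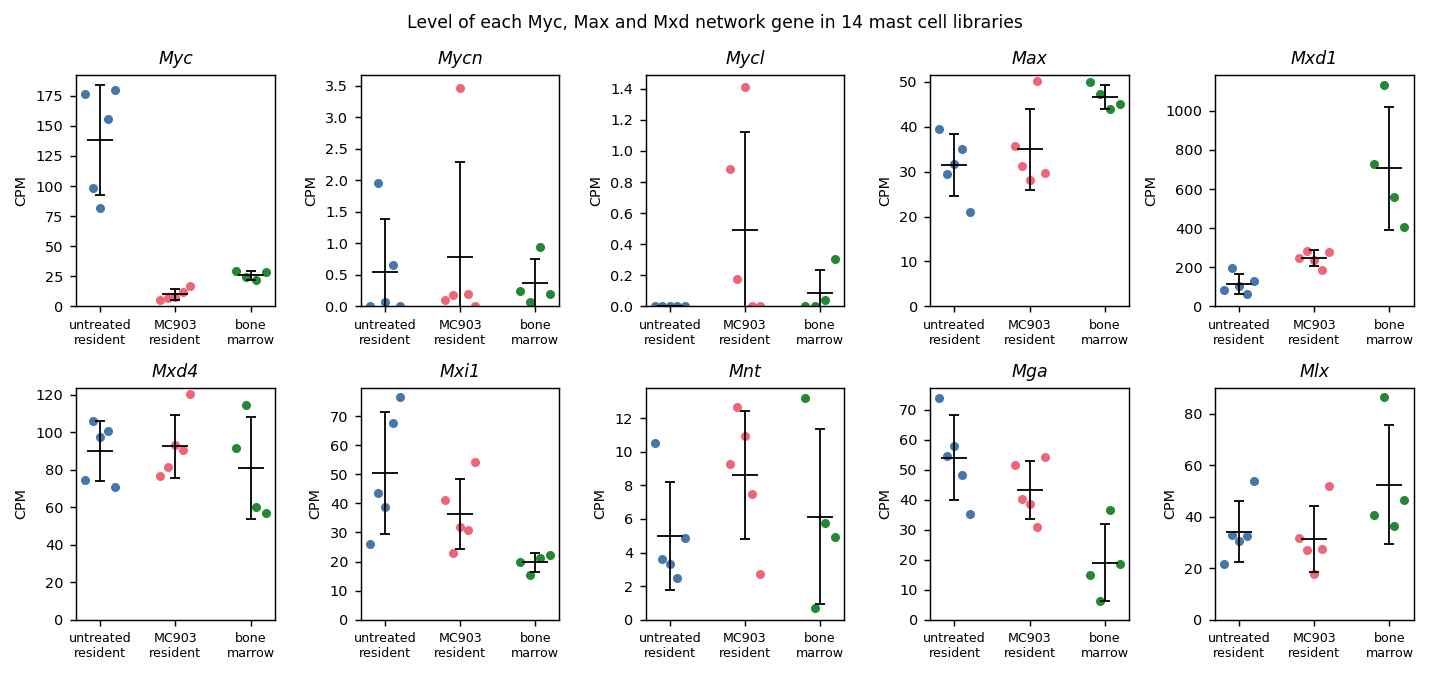
Level of each of the 10 genes in CPM (linear axes starting at 0) in untreated resident, MC903 resident and bone marrow libraries, with a point for each library and the mean ± SD in black. The Myc points of the 3 groups do not overlap, the Mxd1 points run upward from untreated to bone marrow cells, and Mxd4 shows no such order.

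Bone marrow cells had 2.61-fold more Myc transcript than MC903 resident cells (log2 1.38, SE 0.32). Their Myc level was 5.35-fold below that of untreated resident cells (log2 -2.42, SE 0.34). The low MC903 resident values and the high untreated values that picked Myc form 1 arm of each of these comparisons, so neither is tested. The first difference was 1.12 on the log2 scale without libraries 7, 8 and 15 together and 1.76 with an offset for gene length. Without library 15 alone the Myc differences were 1.34 and -2.46 (log2).

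Mycn and Mycl, the relatives of Myc best known from neural and lung tissue, were barely counted. Mycn had 48, 14 and 54 counts in libraries 2, 4 and 8, and 22 in library 14, against at most 6 in any other library. Its log2 differences were 0.54 (95% interval -3.09 to 4.17), -1.10 (-5.03 to 2.84) and -0.56 (-4.43 to 3.31) for MC903 resident against untreated, bone marrow against MC903 resident and bone marrow against untreated, with edgeR adjusted p of 0.9536, 0.8152 and 0.9156. Such intervals leave large changes in either direction undetectable at this depth. Mycl had no count in any untreated library, 17, 3 and 22 counts in libraries 6, 7 and 8, and 1 and 6 counts in libraries 14 and 15. A count of 0 allows a level of up to 0.112 to 0.169 CPM in the untreated libraries. These limits cover counting error only, since the libraries were amplified and carry no molecular identifiers.

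Max, the shared partner, lay at 39.5, 29.5, 31.8, 35.1 and 21.1 CPM in untreated cells. It lay at 35.7, 31.3, 28.0, 50.1 and 29.6 CPM in MC903 resident cells and at 49.99, 47.3, 43.9 and 45.2 CPM in bone marrow cells. Bone marrow libraries were all above the untreated ones but not above library 9. No Max difference was called: 0.16 for MC903 against untreated resident (95% interval -0.40 to 0.71, edgeR adjusted p = 0.9007), 0.41 for bone marrow against MC903 resident (-0.17 to 0.995, adjusted p = 0.461) and 0.57 for bone marrow against untreated (-0.01 to 1.15, adjusted p = 0.2462). The first of these values was -0.04 with an offset for gene length.

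Mxd1, which pairs with Max and recruits the Sin3 and histone deacetylase repressor complex, rose in both populations of treated skin (chromosome 6, 86647042 to 86669161, minus strand). Its levels were 82.6, 194, 104, 63.4 and 127 CPM in untreated cells, 249, 285, 238, 187 and 277 CPM in MC903 resident cells, and 727, 1132, 558 and 406 CPM in bone marrow cells. All bone marrow libraries were above all resident ones, whereas untreated library 2 lay above MC903 library 9. Means were 114 ± 50.6 (SD, n = 5), 247 ± 38.9 (SD, n = 5) and 706 ± 313 CPM (SD, n = 4).

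Mxd1 rose 2.16-fold in MC903 resident over untreated cells (log2 1.11, SE 0.28, 95% interval 0.53 to 1.69, edgeR adjusted p = 0.03532). Against a median of 0.24 over all genes tested, the Mxd1 difference was 0.87, though the median was 0.028 with a filter at 10 CPM. That call was lost in the edgeR fits that left out library 1, 3, 4, 5, 6, 7 or 8 (log2 1.03 to 1.21, adjusted p from 0.05344 to 0.1068), without libraries 7, 8 and 15 (adjusted p = 0.1338) and with an offset for gene length (adjusted p = 0.1113). It was 6.18-fold higher in bone marrow than in untreated cells (log2 2.63, SE 0.30, edgeR adjusted p = 1.025e-05) and 2.85-fold higher than in MC903 resident cells (log2 1.51, SE 0.29, edgeR adjusted p = 0.00572). These calls held in every fit run. Without library 15 the Mxd1 differences were 2.82 (edgeR adjusted p = 5.638e-07) and 1.71 (adjusted p = 0.0007173).

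Mxd4, a relative of Mxd1 common in resting cells, stayed between 70.9 and 106 CPM in untreated, 76.9 and 120.4 CPM in MC903 resident, and 56.9 and 115 CPM in bone marrow libraries. The 3 ranges overlapped throughout. Its log2 differences were 0.04 (95% interval -0.43 to 0.51), -0.19 (-0.70 to 0.31) and -0.15 (-0.65 to 0.35) in the order above, with edgeR adjusted p of 0.9746, 0.7316 and 0.7933. Their signs turned under some settings, the offset for gene length among them.

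Mxi1, which also recruits Sin3, fell in bone marrow cells. It had 26.1, 43.6, 38.8, 67.7 and 76.6 CPM in untreated cells, 41.2, 22.9, 32.01, 30.7 and 54.4 CPM in MC903 resident cells, and 19.99, 15.2, 21.3 and 22.3 CPM in bone marrow cells. Every bone marrow library was below every resident library. Against untreated cells Mxi1 was 2.57-fold lower (log2 -1.36, SE 0.35, edgeR adjusted p = 0.02008), and the call was lost without library 4 (adjusted p = 0.05359) or 13 (adjusted p = 0.0644), with limma (adjusted p = 0.0518) and with an offset for gene length (adjusted p = 0.08649). Against MC903 resident cells the Mxi1 difference of -0.88 (SE 0.35) was not called by edgeR (adjusted p = 0.1842), nor was that between the resident groups (-0.48, SE 0.32, adjusted p = 0.6294).

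Mga, a very large protein that carries a T-box beside the Max-pairing domain and belongs to a Polycomb complex, was also lowest in bone marrow cells. Its levels were 74.0, 54.5, 58.1, 48.4 and 35.2 CPM in untreated cells, 51.6, 40.2, 38.6, 31.1 and 54.4 CPM in MC903 resident cells, and 14.9, 6.10, 36.6 and 18.5 CPM in bone marrow cells. Library 14 overlapped the resident ranges and the other bone marrow libraries did not. Mga fell 2.84-fold from untreated to bone marrow cells (log2 -1.51, SE 0.40, edgeR adjusted p = 0.02216). That call was lost without library 1, 11 or 13 (adjusted p 0.06029, 0.05928 and 0.05149), without libraries 7, 8 and 15 (adjusted p = 0.06879), when only these groups were fitted (adjusted p = 0.06123) and with an offset for gene length (log2 -0.99, adjusted p = 0.1267). Against MC903 resident cells the Mga difference was -1.18 (SE 0.39, edgeR adjusted p = 0.1223). Without library 14 it was called (log2 -1.71, adjusted p = 0.01727), as it was by DESeq2 (adjusted p = 0.01783) and limma (adjusted p = 0.03983). The resident groups differed by -0.32 (95% interval -1.07 to 0.42, edgeR adjusted p = 0.824).

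Mnt, the broadly expressed Max partner that opposes Myc, ranged from 2.46 to 10.5 CPM in untreated, from 2.73 to 12.7 CPM in MC903 resident and from 0.693 to 13.2 CPM in bone marrow libraries. The ranges overlapped almost entirely. Its log2 differences were 0.80 (95% interval -0.82 to 2.41), -0.49 (-2.21 to 1.23) and 0.31 (-1.39 to 2.01), and the edgeR adjusted p were 0.7875, 0.8106 and 0.8877.

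Mlx, the Max-like hub of the nutrient-sensing arm, had 21.5 to 53.8 CPM in untreated, 17.8 to 52.1 CPM in MC903 resident and 36.2 to 86.6 CPM in bone marrow libraries. The groups overlapped. Its log2 differences were -0.13 (95% interval -0.83 to 0.57), 0.75 (0.01 to 1.48) and 0.62 (-0.12 to 1.35), none of them called by edgeR (adjusted p 0.9378, 0.2735 and 0.3408). The first of these values was 0.04 with TMM factors from genes averaging 10 CPM or more.

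Besides Myc, 1 of the 8 other tested genes was called between MC903 resident and untreated cells (Mxd1, higher). Over all genes 2.25% were called, 0.571% higher and 1.68% lower. Myc is left out of these counts throughout, since its values in both resident groups chose the set. Between bone marrow and MC903 resident cells 1 of the 8 was called (Mxd1, higher), where 2.27% of all genes were called, 1.32% higher and 0.952% lower. Between bone marrow and untreated cells 1 of the 8 rose (Mxd1) and 2 fell (Mxi1 and Mga), where 6.87% of all genes were called, 3.49% higher and 3.37% lower. The resident groups overlapped for all 8. Groups did not overlap for 2 of the 8 in the bone marrow against MC903 resident comparison (Mxd1 and Mxi1) and for 3 of the 8 in the bone marrow against untreated comparison (Max, Mxd1 and Mxi1). Over all genes tested, groups did not overlap for 5.33%, 8.29% and 10.4% in the 3 comparisons. The shares of all genes called, here and below, include genes with low counts. With a filter at a mean of 10 CPM 647, 563 and 1772 genes were called from fewer genes, so a larger share was called. The 3 comparisons share libraries pairwise.

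**Figure D2:**
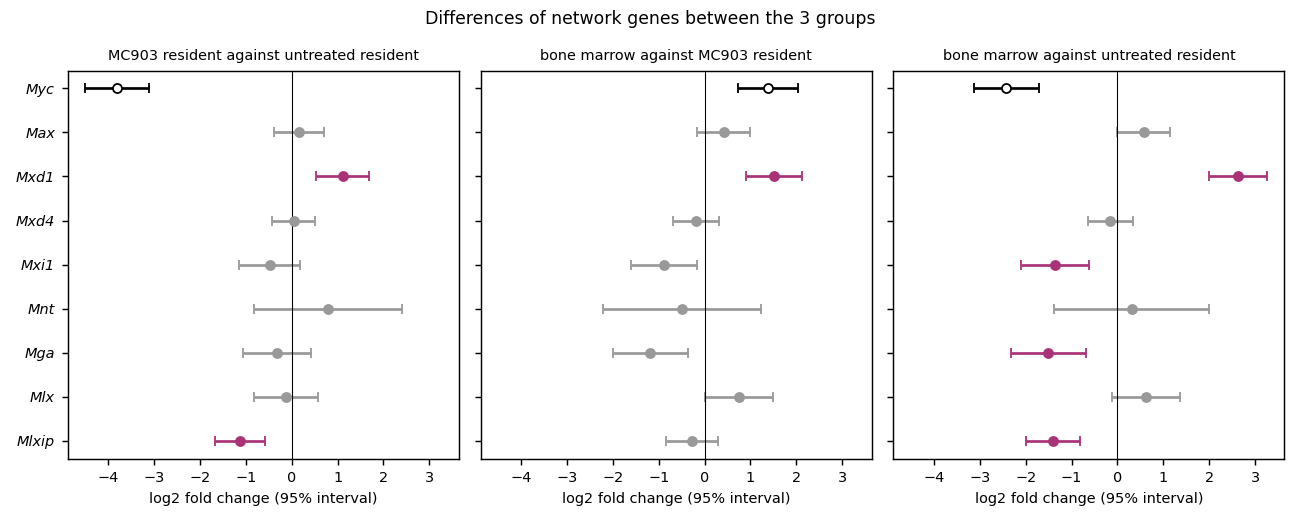
Fitted log2 differences with 95% intervals for 8 network genes (all that passed the filter but Mycn) and Mlxip in each of the 3 comparisons, with a vertical line at 0, called genes in purple and others in grey. The open black symbols mark Myc, which is not tested, at -3.80, 1.38 and -2.42, and Mxd1 lies to the right of 0 in all 3 panels.

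Levels of different genes can be set side by side only per length, here as TPM (transcripts per 1000000 transcripts, from the deposited exon lengths). In untreated cells Myc led with 107 ± 36.2 TPM (SD, n = 5), and its lowest library, 67.4 TPM, lay above the highest Mlx library, 54.7 TPM. Behind it came Mlx (35.8 TPM), Mxd1 (33.9), Mxd4 (22.3), Max (18.5), Mxi1 (15.4), Mga (7.52), Mnt (2.32) and Mycn (0.331), each neighbour overlapping the next, and Mycl at 0. In MC903 resident cells Mxd1 led with 59.2 ± 21.3 TPM (SD, n = 5), followed by Mlx (26.3), Mxd4 (17.9), Max (16.1), Mxi1 (8.64), Myc (5.92), Mga (4.70), Mnt (3.19), Mycn (0.313) and Mycl (0.180), all neighbours overlapping. In bone marrow cells Mxd1 led with 156 ± 65.4 TPM (SD, n = 4), and its lowest library (98.8 TPM) lay above the highest of Mlx (67.6 TPM). There, Mlx (41.6), Max (20.5), Myc (15.02), Mxd4 (14.8), Mxi1 (4.63), Mga (2.07), Mnt (1.99), Mycn (0.188) and Mycl (0.0370) followed. The lowest Mlx library (26.0 TPM) lay above the highest Max library (22.1 TPM). Likewise the lowest Mxd4 library (11.5 TPM) lay above the highest Mxi1 library (5.66 TPM). The mean levels of Myc and Mxd4 in bone marrow cells were within their spread, and Myc ranked 5 by RPKM.

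Because the Max partners compete for Max, Myc was also expressed as a share of the summed TPM of the 8 partners (Myc, Mycn, Mycl, Mxd1, Mxd4, Mxi1, Mnt and Mga). It made up 67.4%, 41.3%, 45.3%, 62.3% and 61.8% in libraries 1 to 5. It made up 3.46%, 4.30%, 5.12%, 8.93% and 8.55% in libraries 6 to 10, and 8.14%, 4.86%, 7.84% and 13.03% in the bone marrow libraries. The untreated libraries stood far above all others, and the 2 groups of treated skin overlapped. Means were 55.6% ± 11.5 (SD, n = 5), 6.07% ± 2.51 (SD, n = 5) and 8.47% ± 3.38 (SD, n = 4). Since Myc chose the set, these shares are a description.

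Mxd1 took the larger share in treated skin, with 18.4% ± 8.65 (SD, n = 5) in untreated, 58.3% ± 5.02 (SD, n = 5) in MC903 resident and 78.6% ± 6.06 (SD, n = 4) in bone marrow libraries. The Mxd4 share was 12.3%, 18.3% and 7.73% in the same order. These shares also move with the fall of Myc in the sum: from untreated to MC903 resident cells the Mxd4 level went from 22.3 to 17.9 TPM while its share was higher, and the Mxd1 level went from 33.9 to 59.2 TPM, a smaller step than its share. The summed level of Mxd1, Mxd4, Mxi1 and Mnt was 73.9 ± 14.3, 88.9 ± 26.95 and 177 ± 67.8 TPM. All 8 partners together came to 189 ± 30.3, 100.0 ± 28.8 and 195 ± 65.8 TPM, so the sums of untreated and bone marrow cells differed by less than their SD, with Myc as the main part in the former and Mxd1 in the latter. Per TPM of Max there were 10.9 ± 4.25, 6.54 ± 1.95 and 9.55 ± 3.28 TPM of partners. Transcript shares say nothing of protein, and Myc protein is known to be short-lived.

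**Figure D3:**
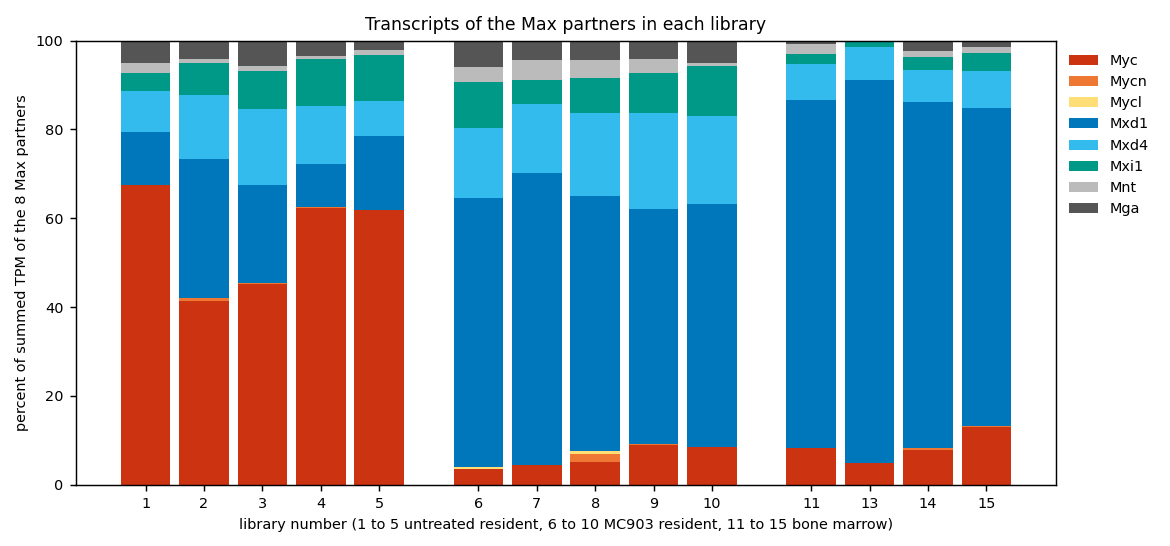
Share of each of the 8 Max partners in their summed TPM (percent, stacked to 100) for every library, in the order of library numbers. Myc fills 41.3% to 67.4% of the bars of libraries 1 to 5 and at most 13.03% of any other bar, and Mxd1 fills most of the remainder there.

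Mxd3, Mlxip and Mlxipl belong to the same extended network. Mlxip, or MondoA, pairs with Mlx and answers to glucose-derived sugar phosphates. It had 119, 105, 178, 132 and 85.1 CPM in untreated cells, 53.7, 63.7, 58.1, 52.4 and 55.7 CPM in MC903 resident cells, and 46.4, 24.1, 45.3 and 71.5 CPM in bone marrow cells. Every treated library was below every untreated one. Mlxip fell 2.18-fold in MC903 resident cells (log2 -1.13, SE 0.26, edgeR adjusted p = 0.01993) and 2.65-fold in bone marrow cells (log2 -1.40, SE 0.28, edgeR adjusted p = 0.002998), both against untreated. The second call held in every fit run. The first was lost without library 3, 4, 6, 7, 8, 9 or 10 (adjusted p from 0.05098 to 0.09618), with DESeq2 size factors (0.05727), with TMM factors from genes averaging 10 CPM or more (0.08498) and without libraries 7, 8 and 15 (0.05685).

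Of the 8 genes listed as targets of the Mlx arm, Txnip was called in all 3 comparisons and the other 7 in none, beside 2.25%, 2.27% and 6.87% of all genes. Txnip, which restrains glucose uptake and is the best known target of MondoA, stood at 797 ± 126 CPM (SD, n = 5) in untreated, 369 ± 71.3 CPM (SD, n = 5) in MC903 resident and 189.9 ± 43.5 CPM (SD, n = 4) in bone marrow cells. It fell by 1.11 on the log2 scale in MC903 resident cells (SE 0.19, edgeR adjusted p = 0.001442) and by a further 0.96 from there to bone marrow cells (SE 0.20, adjusted p = 0.01037). The second call was lost with an offset for gene length (adjusted p = 0.1784). Its close relative Arrdc4 had 12.6, 4.70 and 11.02 CPM (edgeR adjusted p 0.657 between the resident groups).

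Mxd3, a Mxd gene tied to the S phase, had 4.69 to 15.4 CPM in MC903 libraries 6 to 9, but 0.168 CPM in library 10. In bone marrow cells it had 24.6 and 10.5 CPM in libraries 11 and 14, 0.693 CPM in library 13 and no count in library 15. Untreated libraries had at most 4.81 CPM. With this spread the Mxd3 differences of 2.89 (SE 1.57), 0.05 (SE 1.55) and 2.94 (SE 1.62) were not called by edgeR (adjusted p 0.4948, 0.9915 and 0.3189). Mlxipl, the liver-type partner of Mlx, had at most 2.53 CPM in any library and was called in no comparison. Pvt1, the long noncoding RNA gene next to Myc on chromosome 15 (62037986 to 62378096), had 3.15 to 14.1 CPM in libraries 6 to 10 and no more than 1.11 CPM in bone marrow libraries, so these groups did not overlap. Its log2 difference of -4.40 (SE 1.73) was not called by edgeR (adjusted p = 0.1841), but was -7.58 and called without library 15 (adjusted p = 0.04377) and was also called by DESeq2 (0.01503) and limma (0.01432). Pvt1 differed by 1.41 (SE 1.39, edgeR adjusted p = 0.7913) between the resident groups, where Myc had the opposite sign.

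Myc works through cofactors and is cleared by ubiquitin ligases. None of 16 genes for cofactors of Myc and the Mxd proteins was called by edgeR in either comparison with MC903 resident cells, where 2.25% and 2.27% of all genes were called. At an unadjusted p under 0.05 there were 1 and 0, and DESeq2 and limma each called 1 and 0. Ncor1, a corepressor, was the sole call between bone marrow and untreated cells (292 ± 44.3 CPM, n = 5, against 139.6 ± 44.0 CPM, n = 4, log2 -1.06, edgeR adjusted p = 0.00347), and that call was lost with an offset for gene length (adjusted p = 0.4013). Of the 14 genes for turnover of Myc protein, among them Fbxw7, Huwe1 and Skp2, none was called in any comparison by edgeR, DESeq2 or limma, beside 2.25%, 2.27% and 6.87% of all genes by edgeR. At an unadjusted edgeR p under 0.05 there were 0, 0 and 2, and their median log2 differences were 0.01, 0.42 and 0.41 beside -0.10, 0.39 and 0.10 for the cofactors. The medians over all genes tested were 0.24, -0.28 and -0.14. With a filter at a mean of 10 CPM, which leaves out genes with low counts, they were 0.028, 0.025 and 0.027. With an offset for gene length the medians were 0.051, 0.108 and 0.051. Over all genes tested, another scaling moved the first and second medians by over 0.1 and the third by less. With TMM factors from genes averaging 10 CPM or more they were 0.45, -0.44 and -0.10. With those factors the calls over all genes between the resident groups split into 251 higher and 266 lower, where the fit reported here gave 120 higher and 353 lower. Between bone marrow and MC903 resident cells the split was 178 and 254 against 277 and 200.

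Genes that Myc is known to activate were counted in 3 lists, and 2.25% of all genes were called between the resident groups. Of 36 genes of ribosome biogenesis, 1 was called in the comparison of the resident groups, the nucleolin gene Ncl (735 ± 158 against 416 ± 74.0 CPM, n = 5 each, log2 -0.82, SE 0.19, edgeR adjusted p = 0.01993). The other 35 were not called, and the median of the list was -0.32. The Ncl call was lost without library 6, 8 or 10 (adjusted p up to 0.09332), without libraries 7, 8 and 15 (0.07963) and with an offset for gene length (0.08502). In bone marrow against MC903 resident cells no gene of the 36 was called by edgeR (median 0.30), beside 2.27% of all genes. An unadjusted p under 0.05 was reached by 3 of them, and DESeq2 and limma called none. In bone marrow against untreated cells Nop16 and Pa2g4 were higher (log2 2.34 and 1.13, edgeR adjusted p = 0.02944 and 0.04254) and Ncl was lower (-0.68, adjusted p = 0.04658), beside 3.49% and 3.37% of all genes, and the median was -0.03. These last 3 calls were lost without some single libraries: 1, 2, 3, 11 or 13 for Nop16 (adjusted p up to 0.09869), 1, 3, 4, 5, 11, 13 or 15 for Pa2g4 (up to 0.1552) and 1, 2, 5, 13, 14 or 15 for Ncl (up to 0.1161). All 3 were also lost without libraries 7, 8 and 15 (0.05721, 0.06485 and 0.09686 in the same order). With an offset for gene length the Ncl difference was -0.28 (0.6393).

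Among 35 metabolic and translation targets, 5 fell and none rose in MC903 against untreated resident cells (median -0.08), where 1.68% of all genes were called lower and 0.571% higher. That excess of lower calls over all genes depended on the scaling, as given above (353 to 120, or 266 to 251). With a filter at a mean of 10 CPM 340 genes were called lower and 307 higher, from fewer genes. Eif4a1, the helicase of the cap-binding complex, fell from 251 ± 64.2 to 97.0 ± 12.6 CPM (n = 5 each, log2 -1.37, SE 0.19, edgeR adjusted p = 0.0003493). Slc2a1, the glucose transporter GLUT1, fell from 172 ± 13.2 to 64.9 ± 22.1 CPM (n = 5 each, log2 -1.41, SE 0.27, edgeR adjusted p = 0.005237). Impdh2, which makes guanine nucleotides, and Nampt, which makes NAD, fell by 1.40 and 1.19 on the log2 scale (edgeR adjusted p = 0.02306 and 0.02697). Eif4e was the fifth, at -0.83 (adjusted p = 0.04259). Eif4a1 and Slc2a1 kept their calls in every edgeR fit without a single library. Impdh2 lost its call without library 5, 6, 7, 8 or 10 (adjusted p up to 0.09943), Nampt without 1, 2, 3, 4, 7, 8 or 10 (up to 0.1065) and Eif4e without 1, 4, 5, 6, 7, 8 or 10 (up to 0.1544). Without libraries 7, 8 and 15 together Eif4a1 alone kept its call, and Slc2a1 (0.07778), Impdh2 (0.0849), Nampt (0.2011) and Eif4e (0.2114) lost theirs. With TMM factors from genes averaging 10 CPM or more the calls of Nampt (0.06127) and Eif4e (0.1123) were lost. Nampt also lost its call without a filter on low counts. Eif4e also lost its call with DESeq2 size factors, a filter at 10 CPM, an offset for gene length and only the resident groups fitted.

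Between bone marrow and MC903 resident cells 4 genes of the same list were higher and none lower, with a median of 0.55, where 1.32% of all genes were called higher and 0.952% lower. Odc1, the first enzyme of polyamine synthesis and a classic Myc target, rose from 83.7 ± 25.8 CPM (n = 5) to 266 ± 119 CPM (n = 4, log2 1.67, SE 0.31, edgeR adjusted p = 0.004387). The glycolytic genes Pkm and Eno1 rose by 1.03 and 0.96, and Ptma, which encodes prothymosin alpha, by 1.01 (edgeR adjusted p = 0.003549, 0.00876 and 0.006191). All 4 kept their calls in every edgeR fit without a single library, and Odc1 and Eno1 lost them without libraries 7, 8 and 15 (adjusted p = 0.1041 and 0.1079).

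Against untreated cells, where Myc was 5.35-fold lower, 7 metabolic targets were higher in bone marrow cells (median of the list 0.56), where 3.49% of all genes were called higher. Srm, the spermidine synthase, rose from 23.3 ± 10.4 CPM (n = 5) to 108 ± 22.4 CPM (n = 4, log2 2.21, SE 0.32, edgeR adjusted p = 0.000109). Nme1, a nucleoside diphosphate kinase whose reads cannot be told from those of an overlapping readthrough gene, rose by 1.37 (edgeR adjusted p = 0.001629). Eno1 rose by 1.13 and Hspe1, a mitochondrial chaperonin, by 0.91 (adjusted p = 0.0008166 and 0.03709). Among the genes of the list called lower, Slc2a1 fell by 1.25 and Eif4a1 by 0.75 (adjusted p = 0.01046 and 0.02827). Over all genes 3.37% were called lower. Srm, Nme1, Eno1 and Slc2a1 kept their calls in every edgeR fit without a single library. Hspe1 lost its call without 1, 2, 3, 4, 11 or 13 (adjusted p up to 0.1649) and Eif4a1 without 1, 4, 13, 14 or 15 (up to 0.08044). Both were also lost without libraries 7, 8 and 15 (0.0533 and 0.06809), and Slc2a1 with an offset for gene length (0.06723).

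Of 16 cell cycle targets of Myc, the replication helicase genes Mcm5 and Mcm7 rose in MC903 resident cells, where Myc was lowest and 0.571% of all genes were called higher. Mcm5 went from 11.3 ± 2.97 to 42.9 ± 18.1 CPM (n = 5 each, log2 1.93, SE 0.41, edgeR adjusted p = 0.01005) and Mcm7 from 9.79 ± 6.70 to 35.0 ± 7.35 CPM (n = 5 each, log2 1.84, SE 0.39, adjusted p = 0.01064). The Mcm5 call was lost with limma (adjusted p = 0.06429) and the Mcm7 call without libraries 7, 8 and 15 (adjusted p = 0.05197). No other gene of the list was called there, and none by edgeR between bone marrow and MC903 resident cells (medians 0.27 and 0.54), where 2.27% of all genes were called. In that second comparison 7 of the 16 had an unadjusted edgeR p under 0.05, and DESeq2 called 1 and limma 5. In bone marrow against untreated cells Mcm7 and Mcm5 were higher by 3.19 and 2.81 (edgeR adjusted p = 4.876e-05 and 0.0002248), and Cdk4 and Set by 0.74 each (adjusted p = 0.03612 and 0.03064), beside 3.49% of all genes called higher and 3.37% lower. Ccnd1, which encodes cyclin D1, fell from 16.1 ± 9.70 CPM (n = 5) to 0.177 ± 0.354 CPM (n = 4, adjusted p = 0.007057). Cdk4 lost its call without 1, 2, 3, 11, 13 or 14 (adjusted p up to 0.1163) and Set without 1, 3, 11 or 14 (up to 0.1836).

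Of 14 genes that Myc is known to repress, 12 were tested, and 4 fell and none rose in MC903 against untreated resident cells (median -0.73), beside 1.68% lower and 0.571% higher over all genes, a split that depended on the scaling. Klf6 fell from 5356 ± 469 to 2696 ± 922 CPM, Cdkn1a, the p21 inhibitor of cyclin-dependent kinases, from 1246 ± 162 to 666 ± 107 CPM, and Ndrg1 from 2376 ± 310 to 1323 ± 159 CPM (n = 5 each, edgeR adjusted p = 0.00778, 0.002269 and 0.003024). Fth1, the ferritin heavy chain gene, fell by 0.99 on the log2 scale (adjusted p = 0.02668). That call was kept only without library 1 or 2 when single libraries were left out (adjusted p up to 0.1297). It was lost with TMM factors from genes averaging 10 CPM or more (0.09608). DESeq2 size factors, no filter and a filter at 10 CPM also lost it (edgeR adjusted p up to 0.1506). The Klf6 call was lost without libraries 7, 8 and 15 (adjusted p = 0.1105). Klf6 fell by a further 1.56 to bone marrow cells (edgeR adjusted p = 0.0003805), the sole call of the list there, where 0.952% of all genes were called lower. Between untreated and bone marrow cells Klf6, Fth1 and Ndrg1 fell (log2 -2.55, -1.01 and -0.98, edgeR adjusted p = 9.059e-07, 0.01749 and 0.0005961), and Itgal, an integrin chain, was higher (13.2 ± 9.10 against 0.487 ± 0.799 CPM, adjusted p = 0.02602), beside 3.37% of all genes lower and 3.49% higher. Fth1 lost that call without library 13 (0.05527), and Itgal without 1, 4, 5, 13 or 15 (up to 0.07127). Itgal also lost its call without libraries 7, 8 and 15 (0.09645), and Ndrg1 with an offset for gene length (0.06718).

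**Figure D4:**
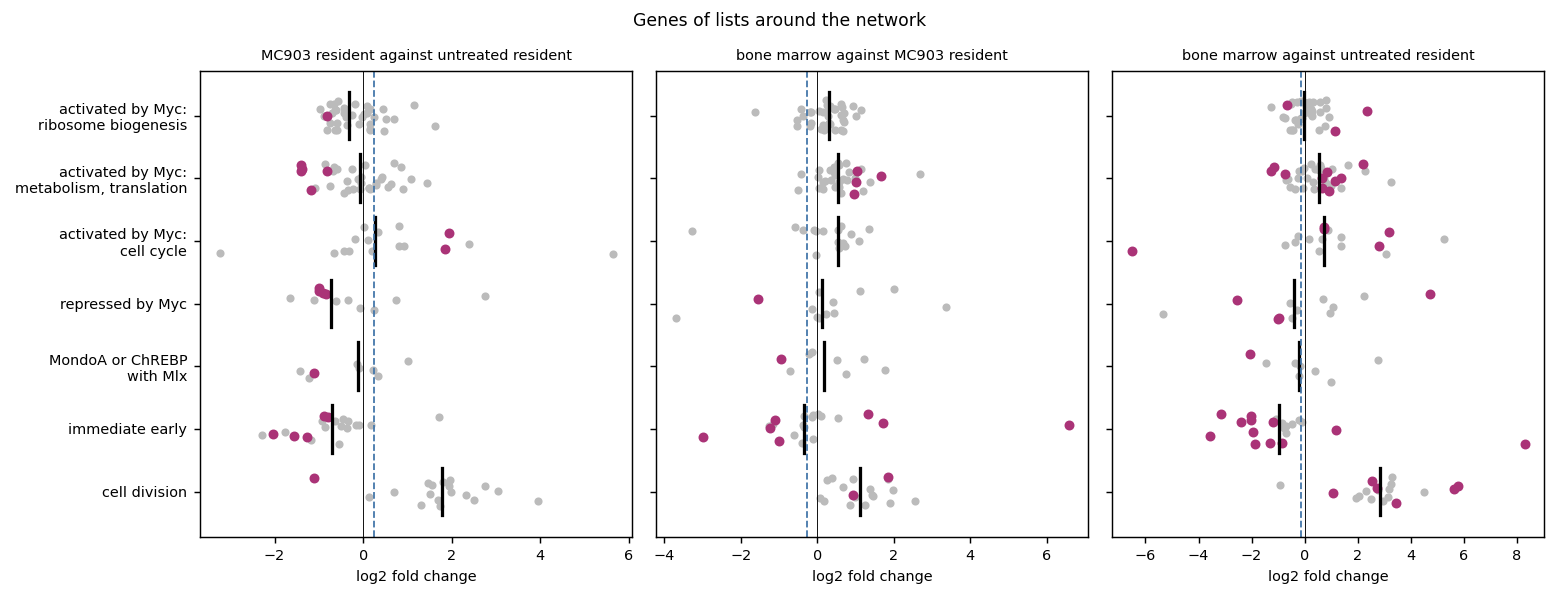
Log2 difference of every tested gene of the lists around the network, a point per gene (purple if called, grey if not), in the 3 comparisons, with a black bar at the median of each list and the dashed line at the median over all 21014 genes tested (0.24, -0.28 and -0.14). The metabolic targets lie mostly right of the dashed line in both bone marrow panels, and the repressed targets lie mostly left of it in the panel for MC903 resident against untreated cells. The medians with a filter at a mean of 10 CPM, not drawn, were 0.028, 0.025 and 0.027.

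Markers of proliferation and of recent stimulation also differed between the groups, and their part in the results was not tested. The 18 proliferation genes summed to 304 to 679.7 CPM in untreated, 518 to 1074 CPM in MC903 resident and 1007 to 1966 CPM in bone marrow libraries, and their median log2 differences were 1.77, 1.11 and 2.86 in the order above. Between the resident groups, where 2.25% of all genes were called, Pcna was the sole call (lower, log2 -1.10, edgeR adjusted p = 0.03675). In bone marrow against MC903 resident cells Mcm6 and Mcm3 rose by 1.84 and 0.93 (adjusted p = 0.004157 and 0.03227), beside 1.32% of all genes called higher. Against untreated cells 6 rose, where 3.49% of all genes did, led by Plk1 (5.79), Rrm2 (5.62), Top2a (3.45) and Mcm2 (2.75), with adjusted p of 0.04004, 0.02472, 0.03603 and 0.0003617. Of these, Mcm6 and Mcm2 kept their calls in every edgeR fit without a single library, while Pcna, Mcm3, Plk1, Rrm2 and Top2a did not (adjusted p up to 0.1225, 0.1075, 0.09974, 0.06383 and 0.09333). Without libraries 7, 8 and 15 the Mcm6 call between bone marrow and MC903 resident cells was lost (0.05359), as was the Pcna call. Pcna kept its call only without library 2 or 10 when single libraries were left out. Its call was also lost with DESeq2 size factors, TMM factors from genes averaging 10 CPM or more and only the resident groups fitted. Over these settings its edgeR adjusted p reached 0.259.

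Immediate early genes, of which Myc itself is often counted as a member, summed to 34106 to 59107 CPM over 20 genes in untreated, 18330 to 35577 CPM in MC903 resident and 17939 to 29712 CPM in bone marrow libraries. Between the resident groups 5 fell and none rose (median -0.71), where 1.68% of all genes were called lower and 0.571% higher, with Ier5 from 184 ± 74.2 to 44.6 ± 14.3 CPM and Nr4a2 from 619.7 ± 98.0 to 209.7 ± 63.8 CPM (n = 5 each, edgeR adjusted p = 0.0004849 and 0.002844). Egr1 and Junb fell by 1.26 and 0.88 (adjusted p = 0.01079 and 0.0191), calls lost without library 8 for Egr1 (0.05736) and without 2, 3, 6, 7 or 8 for Junb (up to 0.07164). Both were also lost without libraries 7, 8 and 15 (0.1793 and 0.1525), and Egr1 without a filter on low counts. Egr3 completed the 5, at -0.78 (edgeR adjusted p = 0.04516). It kept its call only without library 9 when single libraries were left out (up to 0.1289). DESeq2 size factors, TMM factors from genes averaging 10 CPM or more and the length offset lost it. So did leaving out libraries 7, 8 and 15 (over these settings up to 0.2617). In bone marrow against MC903 resident cells 3 were higher (Btg2, Ier3 and Ier5) and 4 lower (Klf2, Egr3, Egr1 and Ier2), beside 1.32% higher and 0.952% lower over all genes. With single libraries left out, the calls of Klf2, Egr3 and Ier3 were kept, while Egr1 lost its call without 7, 9, 10, 11, 14 or 15 (adjusted p up to 0.1644), Ier2 without 9, 11, 13 or 15 (up to 0.09897), Ier5 without 6, 8, 9 or 10 (up to 0.09834) and Btg2 without 6, 8, 13 or 14 (up to 0.07306). Against untreated cells 2 were higher (Btg2 and Ier3) and 10 lower (3.49% and 3.37% over all genes). The lower ones were led by Egr2, Klf2, Egr1 and Klf4 (log2 -3.56, -3.17, -2.38 and -2.02, edgeR adjusted p = 0.03807, 0.001335, 3.452e-05 and 0.003074). The Egr2 call was lost without 1, 2, 3, 4, 13 or 14 (up to 0.116), and the other 3 were kept without any single library.

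The genes whose levels ran most like Myc over the 14 libraries were found by Pearson r on log2 CPM among 7929 genes averaging 10 CPM or more. They were Sde2 (0.965), Tuba1c (0.947), Tcp11l2 (0.941), Nfkb1 (0.939), Cdkn1a (0.938), Tubb2a (0.937), M6pr (0.933), Ggnbp2 (0.932), Morf4l2 (0.929) and Map2k3 (0.923). All 10 had their highest mean in untreated and their lowest in MC903 resident cells, an order that choosing genes by likeness to Myc favours. Tuba1c, an alpha tubulin gene, had 806, 263 and 379.8 CPM, and Nfkb1, a subunit gene of NF-κB, 422 (untreated), 206 (MC903) and 287 CPM (bone marrow). With the group means removed, r with Myc ranged from 0.041 for Tcp11l2 to 0.813 for Ggnbp2. The libraries share groups, so these values describe a pattern. Among the network genes, r with Myc was 0.652 for Mlxip and 0.403 for Mxi1, and -0.642 for Mycl, which rests on few counts, and -0.547 for Mxd1. With the group means removed these were -0.175 for Mlxip, whose sign turned, 0.323 for Mxi1, -0.512 for Mycl and -0.254 for Mxd1.

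Dimers of Max with Myc or with the Mxd proteins bind the E-box CACGTG, which reads the same on both strands. RefSeq promoter windows (GRCm38.p6, 250 bases before to 50 bases after the gene start) were searched for these letters. The stretches below show an E-box of 3 network genes and of 3 genes described above, Eif4a1 (lower in MC903 resident cells), Cdk4 (higher in bone marrow than in untreated cells) and Klf6 (lower in all 3 comparisons), with the E-box in capitals. The Cdk4 window held 4 E-boxes, of which the one farthest before the gene start is in capitals, and the windows of the other genes shown held 1 each. The stretches lie at chr5:34187897-34187956 (minus strand), chr11:74830774-74830833 (plus), chr11:101087223-101087282 (plus), chr11:69672580-69672639 (minus), chr10:127063336-127063395 (plus) and chr13:5861419-5861478 (plus). All lie upstream of the annotated gene except the last 6 bases of the Mlx stretch, which fall in its first exon.
Mxd4: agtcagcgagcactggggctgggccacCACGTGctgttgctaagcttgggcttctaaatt
Mnt: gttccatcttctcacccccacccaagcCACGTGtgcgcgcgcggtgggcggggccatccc
Mlx: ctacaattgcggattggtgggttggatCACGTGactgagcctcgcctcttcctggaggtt
Eif4a1: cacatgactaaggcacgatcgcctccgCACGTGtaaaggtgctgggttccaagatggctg
Cdk4: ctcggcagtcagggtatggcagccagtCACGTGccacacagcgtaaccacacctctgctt
Klf6: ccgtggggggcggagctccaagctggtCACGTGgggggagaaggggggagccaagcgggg

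Of the 9 network genes with a window, 4 held an E-box (Max, Mxd4, Mnt and Mlx), and it was not in the windows of Mycn, Mycl, Mxd1, Mxi1 or Mga. Over all 32851 windows the share was 7.15%, over 27025 genes 8.09% and over the 13319 tested genes with a window 10.6%. In the ribosome, metabolic and cell cycle target lists 20 of 74 genes held it (27%), and in the repressed list 1 of 11 (9.09%). Among all genes called lower in MC903 against untreated resident cells it was in 11.9% (33 of 277), and among those called higher in 9.09% (8 of 88). Among genes called higher and lower in bone marrow against untreated cells it was in 10.5% and 12.9%. A match is a string of letters and not a bound site.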

How the data were processed

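The authors deposited a table of raw counts per gene for 14 libraries, with a gene length per row in the unit of bases per the file headers. Per the submitters' processing notes, reads were processed with STAR and featureCounts on mm10. Versions, the strand setting and the treatment of shared reads are not given in the sources used here, so overlapping and antisense genes are uncertain. Complementary DNA was made by SMART-Seq HT and tagmented with Nextera XT, per the labels' protocols. All 14 count columns were used. Of 55487 gene identifiers, 55094 matched GENCODE M21 on GRCm38 in version, start and end, and 55394 had a symbol.

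Counts were filtered (filterByExpr, minimum count 10, minimum total 15), scaled by TMM and fitted in edgeR 4.0.16 (R 4.3.3) with robust glmQLFit over 3 groups and no covariate. The standard error of a log2 fold change is its size over the root of F. CPM uses TMM-scaled library sizes, and TPM uses the deposited lengths. The fit was tested on simulated data. No 2 libraries agreed within sampling noise (lowest chi-square per gene 58.5). Alternatives were DESeq2 1.42.0 size factors and Wald test, TMM from genes of at least 10 CPM, no filter or a filter at 10 CPM, limma 3.58.1 with voomWithQualityWeights, an offset for gene length (20 bins), fits of the groups compared alone, and leaving out each library. Leaving out libraries 7, 8 and 15 together was chosen after seeing the data. For levels and shares the alternatives were RPKM, raw counts, medians and shares without Mga.

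The network genes and all lists were chosen with earlier results of these data known. Named genes were all network genes, Mxd3, Mlxip, Mlxipl and Pvt1, and up to 4 called genes per list, comparison and direction by size of change, if the higher group averaged 5 CPM or more. Eif4e and, between the resident groups, Egr3 were added, each to complete a count of 5. A result that the rule would name is not reported here. For genes like Myc, predicted genes, clones and mitochondrial genes were left out. Promoters are from RefSeq.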

Additional observations from a re-analysis of the deposited data

Results flagged for a closer look

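Mycn in MC903 resident library 8 had 3.47 CPM, far from the other 4 libraries of its group, which had 0 to 0.194 CPM. In bone marrow cells Mycl reached 0.303 CPM in library 15, while its level in libraries 11, 13 and 14 was 0 to 0.0425 CPM. Both rest on few counts, 54 for Mycn and 6 for Mycl. Among 38 groups of values examined these 2 stood out, where chance gives about 1 in 20. Libraries 8 and 15 were among the 3 with the most genes detected, and library 15 carried the highest macrophage and dendritic cell markers.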

How the results depend on the processing

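No paired analysis was possible because the labels number the libraries in 1 running series and the groups share no number. Besides Myc, the network genes called between MC903 and untreated resident cells (1) were 0 with an offset for gene length, 0 without libraries 7, 8 and 15, and 0 to 1 with single libraries left out. Between bone marrow and MC903 resident cells (1) they were 3 with the DESeq2 Wald test, 2 with limma, and 1 to 2 with single libraries left out. Between bone marrow and untreated cells (3) they were 1 with the length offset and 1 to 3 with single libraries left out. From raw counts the Myc share of the Max partners was 30.5%, 2.26% and 3.37%. Myc ranked 5 by RPKM in bone marrow cells, and 4 to 5 with single libraries left out.

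Signs turned for values near 0 or on few counts, and the cause was not tested. For MC903 against untreated resident cells these were Mycn without libraries 7, 8 and 15 (-2.38), Max with the length offset (-0.039), Mxd4 with the length offset (-0.006), limma (-0.069) or single libraries left out (-0.028 to 0.17), and Mlx with TMM from genes of at least 10 CPM (0.04), a filter at 10 CPM (0.04), single libraries left out (-0.28 to 0.10) or without libraries 7, 8 and 15 (0.12). For bone marrow against MC903 resident cells they were Mycn without libraries 7, 8 and 15 (2.003), Mxd4 (0.28) and Mlxip (0.10) with the length offset, Mxd3 with DESeq2 size factors (-0.13), TMM from genes of at least 10 CPM (-0.14), the Wald test (-0.13), limma (-1.19), only these groups (-0.081) or single libraries left out (-1.21 to 0.47), and Mlxipl with limma (-2.48) or single libraries left out (-3.71 to 0.99). For bone marrow against untreated cells they were Mycn (0.52), Mnt (-0.10) and Mlxipl (-1.29) with limma, Mxd4 with the length offset (0.28), and, with single libraries left out, Mnt (-0.40 to 0.78) and Mlxipl (-3.14 to 1.59).

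Calls over all genes (473, 477 and 1443) were 1062, 1710 and 2707 with the Wald test and 1357, 2073 and 2212 with limma. The first was 253 without libraries 7, 8 and 15. The second was 748 without a filter, 1043 with the length offset (887 higher, 156 lower), 315 with only these groups and 298 to 704 with single libraries left out. With DESeq2 size factors the splits of the first 2 were 207 higher to 294 lower and 167 to 242.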
